A study of Mus musculus with 6 samples.

Results

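The genes described here are the core of the TGF-beta pathway: the 3 ligands Tgfb1, Tgfb2 and Tgfb3, the 3 receptors Tgfbr1, Tgfbr2 and Tgfbr3, the receptor-activated Smads Smad2 and Smad3, the shared partner Smad4 and the inhibitory Smad7. They were taken by gene symbol, and all 10 were present among the 31017 genes counted; all 10 passed the filter on low counts, as did 12076 genes in all. The 6 libraries hold poly(A) RNA of 4T1, a line of mouse mammary carcinoma cells that serves as a model of metastatic breast cancer. In the 3 ETV4 KO libraries the cells had received Cas9 and guide RNAs against the gene for the ETS transcription factor ETV4, and in the 3 control libraries Cas9 and control guides. Both groups were nucleofected, grown in 3D collagen I gels in medium with serum, and released from the gels with collagenase I. All ETV4 KO libraries carry the code c39 and all controls the code sgCTRL. What c39 stands for, whether the cells were 1 clone, which collagen concentration was used, and if replicates came from separate cultures could not be taken from the sources used here. The p-values therefore cover just the spread among these libraries, which may be technical.

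TGF-beta ligands are secreted in a latent form and, once released, bind TGFBR2, a receptor kinase that then recruits and phosphorylates TGFBR1. TGFBR3 (betaglycan) is a co-receptor without kinase activity that presents ligand, TGF-beta 2 above all. Active TGFBR1 phosphorylates SMAD2 and SMAD3, which bind SMAD4 and regulate genes in the nucleus; SMAD7 is itself induced by the pathway and blocks the receptor. In mammary epithelium TGF-beta restrains growth, and in carcinoma cells it can drive a mesenchymal and invasive state.

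Total counts lay between 24356286 and 29042569 in ETV4 KO libraries, against 22355015 to 26669985 in control libraries. The targeted gene Etv4 had 87.4, 89.5 and 92.3 CPM (counts scaled to the size of the library and by the TMM factors) in ETV4 KO, against 134, 135 and 133 CPM in controls, so its mRNA was lower in each ETV4 KO library but not absent (log2 fold change -0.58). Of the 175 expressed genes within 10 Mb of it on chromosome 11, 27.4% lay below Etv4, and their median was -0.41. Less the median of its 10 Mb bin, the value of Etv4 was -0.11. Mammary epithelial markers were present in every library, and Krt8, Krt18, Krt14, Cdh1 and Epcam were called lower while Krt19 was called higher. The 6 of them summed to 3408 to 3557 CPM in ETV4 KO, against 4760 to 4899 CPM in controls. Mitochondrial genes held 2.27% to 2.51% of counts in ETV4 KO, against 1.80% to 1.96% in controls. The part of these shifts in the results below was not tested. Fibroblast markers summed to 13.0 to 14.6 CPM in ETV4 KO, against 9.83 to 11.7 CPM in controls, nearly all of it Pdgfra, with Lum at 0. Macrophage markers summed to 9.41 to 11.4 CPM in ETV4 KO, against 9.83 to 10.5 CPM in controls, nearly all of it Cd68, with Adgre1 and Lyz2 at 0. Endothelial markers summed to at most 0.314 CPM in ETV4 KO, against at most 0.603 CPM in controls. T cell markers summed to at most 0.0349 CPM in ETV4 KO and 0 in controls, with Cd3e, Cd3g and Cd8a at 0.

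Among the receptors and among the Smads, genes moved in opposite directions. Tgfb3 was lower in ETV4 KO cells and Tgfb1 did not pass the test; Tgfbr2 and Tgfbr3 were higher and Tgfbr1 lower; Smad3 was lower, Smad4 and Smad7 were higher, and Smad2 did not pass. A gene was called at an edgeR quasi-likelihood p under 0.05 after Benjamini-Hochberg adjustment over all genes tested. By this rule 4 of the 10 genes were higher and 3 lower, where 35.0% of all tested genes were called higher and 36.0% lower. The ranges of the groups did not overlap for 7 of the 10, against 72.7% of all tested genes. The share of the 10 genes that was called is thus close to that of all tested genes, and the results lie in which genes moved, which way and by how much. Their median log2 fold change (ETV4 KO over control) was 0.01, against -0.0038 over all tested genes, and their median absolute log2 fold change was 0.38, against 0.29. Of the 10, only Tgfbr3 was called and changed at least 2-fold; 9.89% of all tested genes were. In bulk RNA, fewer cells expressing a gene and less RNA per cell cannot be told apart.

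**Figure D1:**
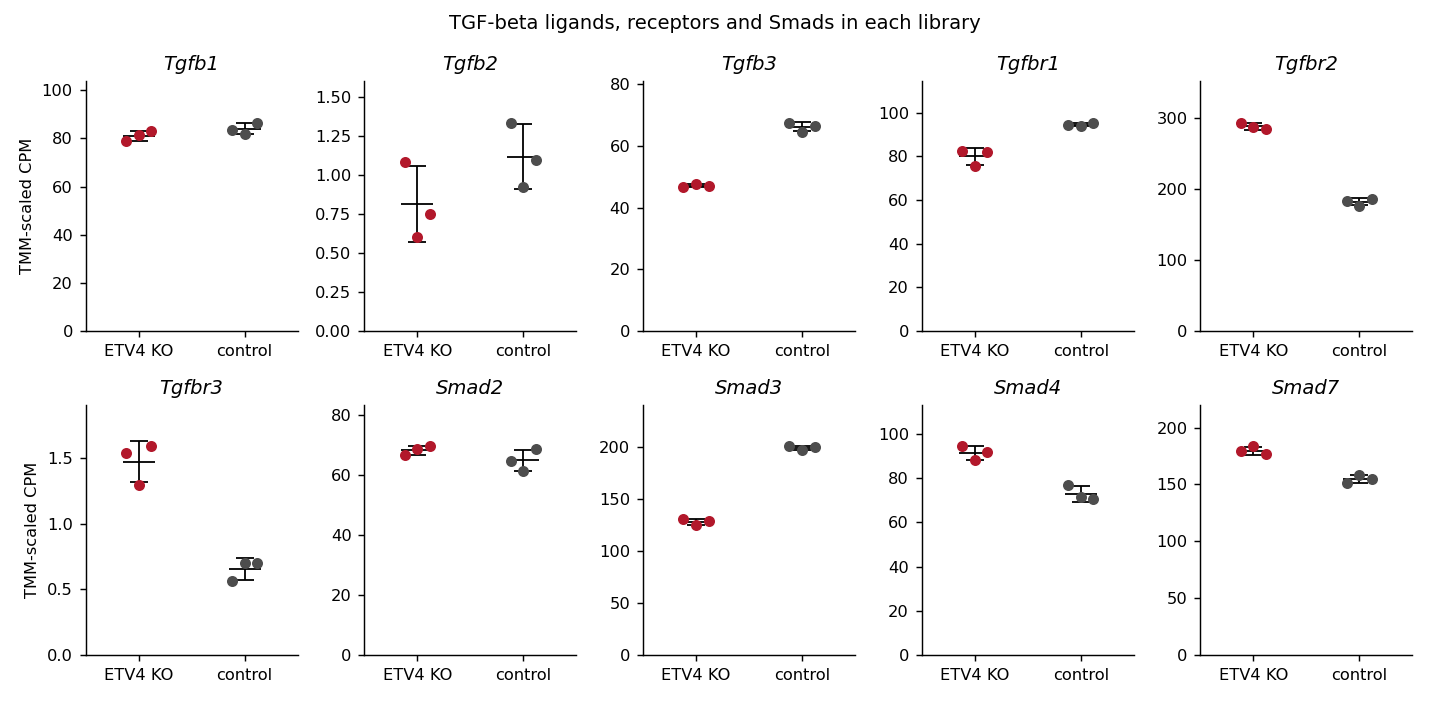
TMM-scaled CPM of each gene in the 3 ETV4 KO libraries (red) and the 3 control libraries (grey); points are libraries, bars the mean and SD, and each panel has its own axis from 0. The groups overlap for Tgfb1, Tgfb2 and Smad2 and not for the other 7 genes.

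The 300 bases around a gene's start are shown for Tgfbr2 and Smad3, which rose and fell most among the well expressed genes of the set, and for Tgfb1, which was not called. ETV4 belongs to the PEA3 subfamily of ETS factors, which bind sequences with a GGAA core, and the hexamer AGGAAG, known as the PEA3 motif, is in capitals wherever it stands on either strand (as CTTCCT on the other). The sequences are RefSeq's for GRCm38.p6, written 5′ to 3′ on the gene's strand, from 250 bases before the start to the 50 that follow it.
Tgfbr2, chr9:116175314-116175613, minus strand: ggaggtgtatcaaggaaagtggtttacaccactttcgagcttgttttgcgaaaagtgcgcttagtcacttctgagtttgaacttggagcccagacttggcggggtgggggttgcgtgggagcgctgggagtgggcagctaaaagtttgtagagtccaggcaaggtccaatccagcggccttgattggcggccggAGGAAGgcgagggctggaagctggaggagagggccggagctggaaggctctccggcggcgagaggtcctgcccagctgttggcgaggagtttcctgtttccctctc
Smad3, chr9:63757945-63758244, minus strand: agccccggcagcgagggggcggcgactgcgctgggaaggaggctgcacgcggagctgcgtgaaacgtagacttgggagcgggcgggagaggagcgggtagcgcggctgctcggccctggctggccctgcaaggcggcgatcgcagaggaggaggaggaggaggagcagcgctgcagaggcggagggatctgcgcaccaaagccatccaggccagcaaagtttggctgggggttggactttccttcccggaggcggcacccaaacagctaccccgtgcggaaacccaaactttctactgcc
Tgfb1, chr7:25686752-25687051, plus strand: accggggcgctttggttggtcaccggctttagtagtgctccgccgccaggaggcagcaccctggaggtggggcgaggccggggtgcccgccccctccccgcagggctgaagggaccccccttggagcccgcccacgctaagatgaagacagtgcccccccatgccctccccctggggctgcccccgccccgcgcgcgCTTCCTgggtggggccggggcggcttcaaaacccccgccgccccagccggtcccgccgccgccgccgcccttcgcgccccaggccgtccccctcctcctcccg
The hexamer began 56 bases before the start in Tgfbr2 and, on the opposite strand, 53 bases before it in Tgfb1, and the Smad3 window held none. Windows were found for 5 of the 10 genes, Tgfb1, Tgfb2, Tgfbr1, Tgfbr2 and Smad3. Tgfbr1 has a pair of them, and the hexamer was in both; the Tgfb2 window held none. In all, 4 of these 6 windows held it, and so did 35.4% of the 32851 windows in the RefSeq table. A match describes the letters and not binding.

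Among the ligands, Tgfb3 fell and Tgfb1 did not pass the test. Tgfb3 (chromosome 12, 86056745 to 86079041 in mm10) had 46.6, 47.5 and 47.0 CPM in ETV4 KO, against 67.4, 64.5 and 66.3 CPM in controls. Every ETV4 KO library was below every control library, and the log2 fold change was -0.49 (SE 0.043, n = 3 per group, edgeR adjusted p = 2.07e-11). Tgfb1 (chromosome 7, 25687002 to 25705077), the best known of the ligands, had 78.9, 81.3 and 82.9 CPM in ETV4 KO, against 83.6, 81.9 and 86.5 CPM in controls. Its groups overlapped, and the log2 fold change of -0.05 had a 95% interval of -0.13 to 0.03 (edgeR adjusted p = 0.243). With upper-quartile factors it was called lower at -0.09 (edgeR adjusted p = 0.0451), and with library size alone at -0.10 (edgeR adjusted p = 0.0216), while 13 other alternatives of scaling, filter, tool, threshold, block or samples left it uncalled.

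Tgfb2 (chromosome 1, 186622792 to 186705989) was close to the limit of detection. It had 31, 15 and 18 counts in ETV4 KO, against 31, 25 and 25 counts in controls. Its groups overlapped, and its log2 fold change of -0.42 had an interval of -0.98 to 0.13 (edgeR adjusted p = 0.166), so that neither no change nor a fall to about 0.506 of the control level lies outside it. Without ETV4 KO replicate 1 the log2 fold change was -0.71 (edgeR adjusted p = 0.0533), and with each other sample left out it was not called either.

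The make-up of the ligand transcripts was compared within each library, where library scaling cancels. With counts divided by the length of the annotated exons, Tgfb1 made up 52.8%, 53.3% and 54.0% of the ligand transcripts in ETV4 KO, against 45.1%, 45.8% and 46.5% in controls. Tgfb3 made up 46.2% ± 0.517 in ETV4 KO and 53.7% ± 0.618 in controls (SD, n = 3 each). Tgfb2 made up 0.631%, 0.345% and 0.427% in ETV4 KO, against 0.628%, 0.449% and 0.514% in controls, which overlap (exact two-sided permutation p = 0.60). The groups did not overlap for Tgfb1 and Tgfb3, and the exact two-sided permutation p was 0.10 for each, the smallest that 3 against 3 allows (0.125 after adjustment over the 5 such quantities computed). Tgfb1 was the more abundant of the pair in ETV4 KO with either length used, whereas in controls their order depends on the length. With the length of the principal coding transcript, an alternative chosen after seeing the data, Tgfb1 made up 72.6% ± 0.474 in ETV4 KO and 66.2% ± 0.607 in controls (SD, n = 3 each). The sum of the 3 ligands was 30.1 ± 0.444 CPM per kb of exon in ETV4 KO and 36.4 ± 0.788 CPM per kb in controls (SD, n = 3 each).

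The signalling receptors moved apart. Tgfbr2 (chromosome 9, 116084293 to 116175360), the kinase that binds ligand, had 293, 286 and 284 CPM in ETV4 KO, against 182, 176 and 186 CPM in controls. All ETV4 KO libraries were above all controls, by a log2 fold change of 0.66 (edgeR SE 0.033, n = 3 per group, adjusted p = 4.71e-17), which is 1.58-fold with an interval of 1.51 to 1.66. Tgfbr1 (chromosome 4, 47353222 to 47414931), the kinase that phosphorylates the Smads, had 82.3, 75.6 and 82.2 CPM in ETV4 KO, against 94.4, 93.9 and 95.4 CPM in controls. It fell by 0.24 on the log2 scale (SE 0.040, edgeR adjusted p = 4.02e-06), with no overlap between the groups. The AGGAAG hexamer was in the promoter windows of both receptors, and binding there was not tested.

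Within each library the log2 ratio of Tgfbr2 to Tgfbr1 counts was 1.83, 1.92 and 1.79 in ETV4 KO, against 0.95, 0.91 and 0.97 in controls. The difference of 0.91 was far larger than the spread within a group (SD 0.066 in ETV4 KO and 0.029 in controls). The exact two-sided permutation p was 0.10, the smallest the design allows. Other expressed genes in the chromosome bin of Tgfbr2 had a median log2 fold change of 0.17, against -0.15 for Tgfbr1. Less its bin median, Tgfbr2 had 0.49 and Tgfbr1 -0.09. These medians differ in the direction of the ratio, and their part in the difference was not tested. The pair summed to 47.4 ± 0.920 CPM per kb of exon in ETV4 KO and 36.7 ± 0.728 CPM per kb in controls (SD, n = 3 each), so that the rise of Tgfbr2 exceeded the fall of Tgfbr1.

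Tgfbr3 (chromosome 5, 107106570 to 107289629), the co-receptor betaglycan, had 44, 32 and 38 counts in ETV4 KO, against 13, 19 and 16 counts in controls. It was higher in every ETV4 KO library, by a log2 fold change of 1.16 (edgeR SE 0.26, n = 3 per group, adjusted p = 0.000187). This was the largest fold change among the 10 genes, on the fewest counts apart from Tgfb2, and its interval of 0.64 to 1.68 is correspondingly wide. Its level stayed low in both groups, at 0.225 ± 0.024 CPM per kb of exon in ETV4 KO and 0.10 ± 0.013 CPM per kb in controls (SD, n = 3 each).

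**Figure D2:**
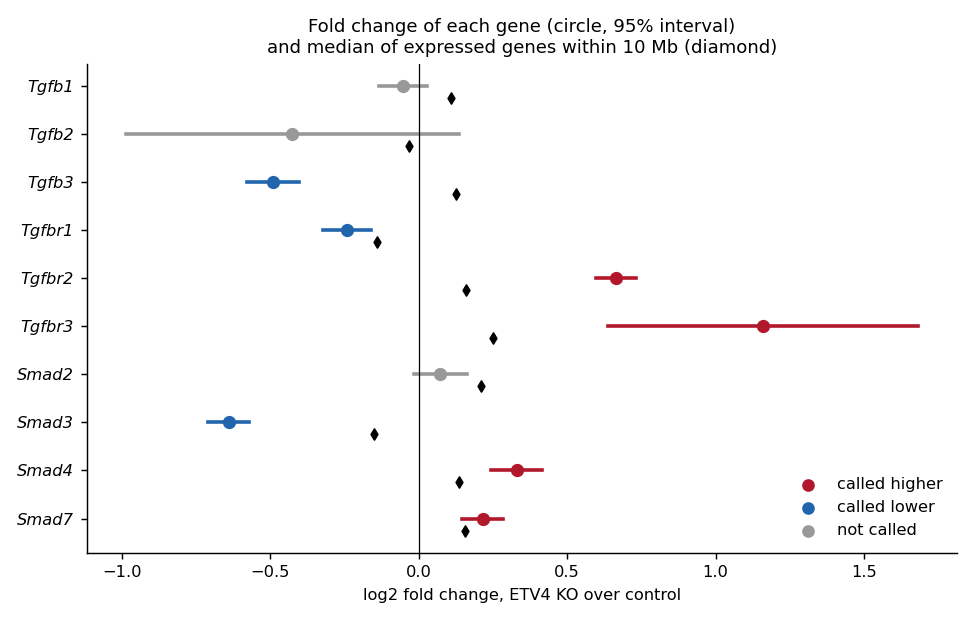
Log2 fold change of each gene, ETV4 KO over control (circle), with its 95% interval from the edgeR fit (line) and, as a diamond, the median of the expressed genes whose starts lie within 10 Mb. Tgfb3 and Smad3 lie left of zero and Tgfbr2 and Tgfbr3 right of it, each well away from its diamond, while Smad7 lies close to its own.

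The receptor-activated Smads did not move together. Smad3 (chromosome 9, 63646767 to 63757994), which binds DNA directly, had 130.4, 125 and 129 CPM in ETV4 KO, against 201, 197 and 199.8 CPM in controls. The groups were far apart and tight, and the log2 fold change was -0.64 (SE 0.034, n = 3 per group, edgeR adjusted p = 2.23e-16), the largest fall among the 10 genes. Smad2 (chromosome 18, 76241580 to 76310963), whose main form does not bind DNA directly, had 66.8, 68.6 and 69.6 CPM in ETV4 KO, against 64.9, 61.6 and 68.6 CPM in controls. These groups overlapped, and the log2 fold change of 0.07 had an interval of -0.02 to 0.16 (edgeR adjusted p = 0.134). Without control replicate 3 it was called higher at 0.11 (edgeR adjusted p = 0.0430; range over the 6 samples left out in turn, 0.0430 to 0.561).

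Within each library the log2 ratio of Smad3 to Smad2 counts was 0.96, 0.86 and 0.89 in ETV4 KO, against 1.63, 1.68 and 1.54 in controls. The difference was -0.71 (SD 0.054 in ETV4 KO and 0.069 in controls), with no overlap. The exact two-sided permutation p was 0.10, the smallest possible. Other expressed genes in the chromosome bin of Smad3 had a median log2 fold change of -0.14, against 0.21 for Smad2. Less its bin median, Smad3 had -0.49 and Smad2 -0.14. Here too the medians differ in the direction of the ratio, and their part in the difference was not tested. Smad3 remained the more abundant of the pair per kb of exon, at 23.1 ± 0.533 CPM per kb in ETV4 KO and 35.9 ± 0.351 CPM per kb in controls, where Smad2 had 7.79 ± 0.162 and 7.41 ± 0.403 CPM per kb (SD, n = 3 each). Together they summed to 30.9 ± 0.482 CPM per kb in ETV4 KO and 43.4 ± 0.694 CPM per kb in controls.

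**Figure D3:**
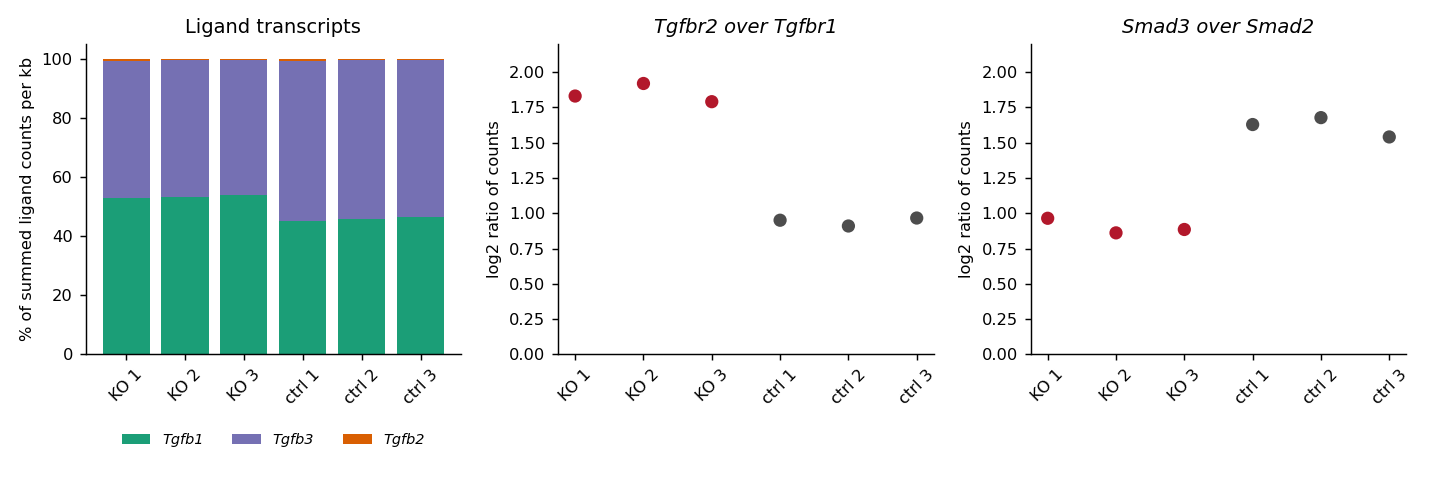
Left, the share of each ligand in the summed ligand counts per kb of exon, in percent, by library; middle and right, the log2 ratio of counts of Tgfbr2 to Tgfbr1 and of Smad3 to Smad2. The 3 ETV4 KO libraries (red) lie above the 3 controls (grey) for the receptors and below them for the Smads.

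Smad4 and Smad7 were both higher. Smad4 (chromosome 18, 73639009 to 73703780), the partner that both TGF-beta and BMP Smads need, had 94.5, 88.4 and 91.9 CPM in ETV4 KO, against 76.9, 71.4 and 70.5 CPM in controls. The groups did not overlap, with a log2 fold change of 0.33 (edgeR SE 0.042, n = 3 per group, adjusted p = 3.52e-08). Smad7 (chromosome 18, 75367529 to 75395935), the feedback inhibitor, had 179, 183 and 177 CPM in ETV4 KO, against 151, 158 and 155 CPM in controls. It was higher in every ETV4 KO library, by 0.22 on the log2 scale (SE 0.034, n = 3 per group, edgeR adjusted p = 1.75e-06).

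The order of the Smads by level per kb of exon changed between the groups. In ETV4 KO Smad7 was highest at 39.8 ± 0.774 CPM per kb, then Smad4 at 24.7 ± 0.824 and Smad3 at 23.1 ± 0.533 CPM per kb. In controls Smad3 was highest at 35.9 ± 0.351 CPM per kb, then Smad7 at 34.2 ± 0.724 and Smad4 at 19.6 ± 0.938 CPM per kb (SD, n = 3 each). No neighbours in either order overlapped in range, and both orders were identical with the length of the principal transcript. Of all 10 genes Tgfb2 and Tgfbr3 were lowest in both groups. Tgfbr3 was above Tgfb2 in ETV4 KO and below it in controls, again without overlap, though on at most 44 counts per library. With the principal transcript length the gap in ETV4 KO was narrow, with the lowest Tgfbr3 value at 0.2123 and the highest Tgfb2 value at 0.2117 CPM per kb. At such counts the order of these genes is not firm. Of the receptors Tgfbr2 had 35.1 ± 0.549 CPM per kb in ETV4 KO and 22.2 ± 0.615 CPM per kb in controls, and Tgfbr1 12.2 ± 0.583 CPM per kb in ETV4 KO and 14.5 ± 0.118 CPM per kb in controls (SD, n = 3 each). In controls the ranges of Smad4 and Tgfb3 overlapped, and the order of Tgfb3 and Smad4 was not resolved there with the union of exons.

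Fold changes differed between chromosomes in these libraries, so each gene was set beside the expressed genes whose starts lie within 10 Mb of its own. Expressed means an edgeR log2 CPM above 3. The 126 neighbours of Tgfbr2 had a median of 0.16 (log2 fold change), and Tgfbr2 was above 96.8% of them. On the same chromosome 9 the neighbours of Smad3 had a median of -0.15, and 8.70% of the 115 lay below Smad3. Tgfb3 was lower than its surroundings, which had a median of 0.13, and 4.11% of its 73 neighbours lay below it. Tgfbr3 was above 99.0% of its 105 neighbours, whose median was 0.25.

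Smad2, Smad4 and Smad7 lie close together on chromosome 18, among genes that were mostly higher. Of the 221 expressed genes of that chromosome 73.3% were above zero, with a median of 0.16. Smad4 was above 66.7% of its 63 neighbours, Smad7 above 54.7% of its 64 and Smad2 above 31.7% of its 60. When the median of the expressed genes that share a 10 Mb bin with a gene was taken out, Smad7 was no longer called, at 0.05 (edgeR adjusted p = 0.236), nor was Tgfbr1, at -0.09 (edgeR adjusted p = 0.0599). Under that setting Smad2 turned to -0.14 (edgeR adjusted p = 0.00734) and Tgfb1 to -0.16 (edgeR adjusted p = 0.000734), both called lower. Smad4 kept a call at 0.16, and Tgfb3 (-0.61), Tgfbr2 (0.49), Tgfbr3 (0.85) and Smad3 (-0.49) kept theirs. This setting treats the local median as known, without the scatter of the neighbours. Whether copy number differs between the cells was not measured.

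**Figure D4:**
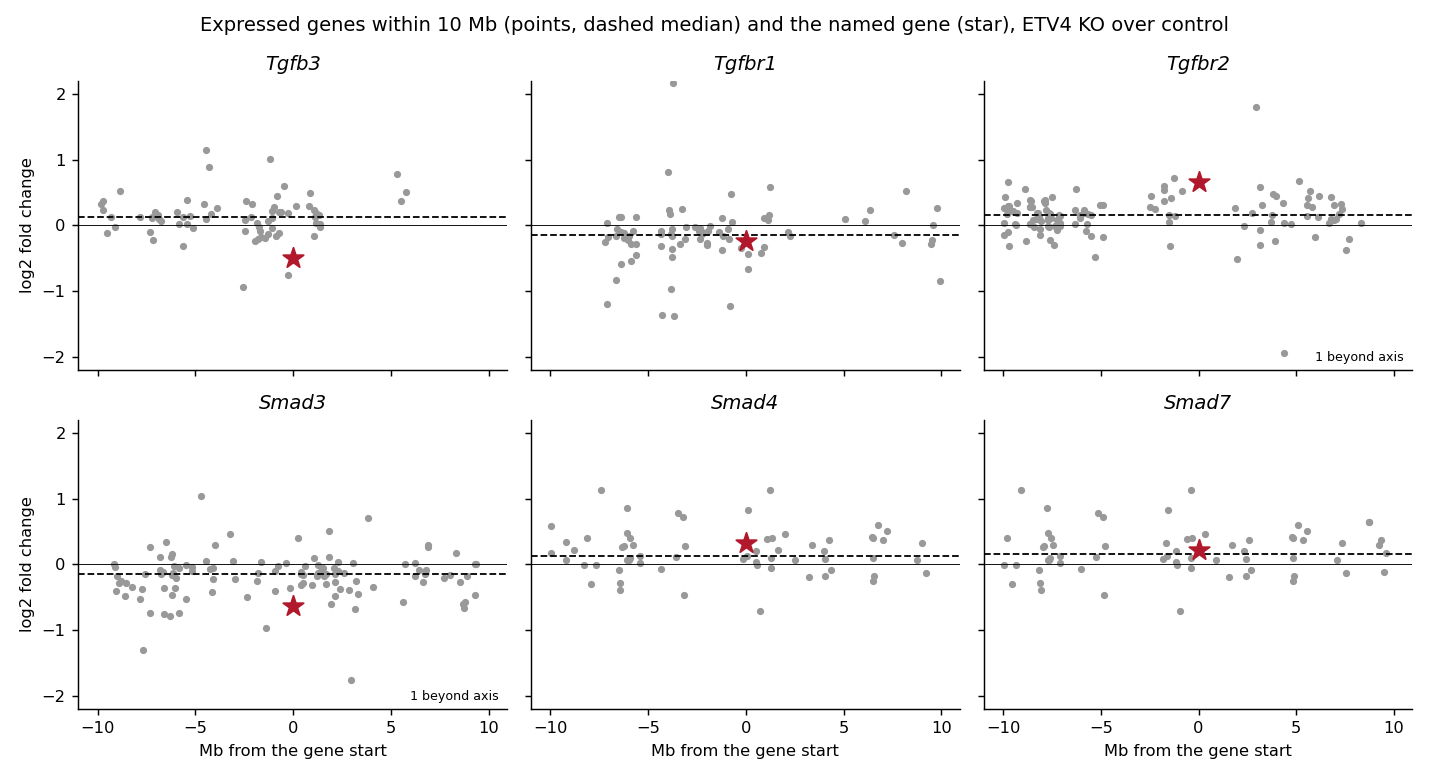
Log2 fold change, ETV4 KO over control, of the expressed genes within 10 Mb of 6 of the genes, by distance between gene starts in Mb (grey points, dashed line at their median), with the named gene as a star; a note in the panel gives the number of points beyond the axis. Tgfb3, Tgfbr2 and Smad3 stand toward the edge of their neighbours, and Tgfbr1 and Smad7 close to the median of theirs.

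By the Euclidean distance between log2 CPM centred on each gene's mean over the 6 libraries, the genes closest to Smad3 were Gosr2 (distance 0.033, log2 fold change -0.63), Rnf114 (0.035, -0.64) and Irf2 (0.047, -0.63). Those closest to Tgfbr3 were Tmem158 (distance 0.226, log2 fold change 1.09), Ldlrad3 (0.228, 1.13) and Rhoq (0.231, 1.21). With 6 libraries in 2 groups this measure follows mainly the size of the difference between the groups.

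The rest of the pathway was read from 8 lists, 119 genes in all, of which 93 were tested. Of these 52 rose and 32 fell in ETV4 KO, together 90.3%, where 71.1% of all tested genes were called, and their median log2 fold change was 0.13. The split depended on the scaling, with 47 higher and 34 lower under upper-quartile factors, and 44 higher and 35 lower under library size alone. The lists were drawn up with earlier results of these data known. The 43 genes taken from them by rule had SEs of the log2 fold change from 0.031 to 0.37 and 0.0276 as their highest edgeR adjusted p. No gene of the 43 had overlapping groups, where 72.7% of all tested genes had none. The rule picks called genes by their adjusted p, so low p-values and separate groups follow largely from the choice. With the bin medians taken out 36 of the 43 kept their call, 5 lost it, 1 changed sign and 1 had no position. All changes below are log2 fold changes.

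Genes that hold the latent ligand in the matrix or release it went both ways, 7 of 13 tested higher and 6 lower, with a median log2 fold change of 0.11. Of the latent TGF-beta binding proteins, Ltbp1 rose by 0.96, to 512 ± 10.5 CPM in ETV4 KO, against 263 ± 11.3 CPM in controls (SD, n = 3 each). Ltbp2 rose by 1.00 and Ltbp4 by 1.15, while Ltbp3 fell by 0.85 to 458 ± 11.7 CPM in ETV4 KO, against 823 ± 17.9 CPM in controls (SD, n = 3 each). Itgb6, the integrin subunit that pairs with Itgav to release active TGF-beta 1 and 3, fell by 1.70, and Mmp9, a gelatinase that can free latent ligand, fell by 1.27. Itgav itself rose by 0.46, to 310 ± 13.0 CPM in ETV4 KO, against 225 ± 5.58 CPM in controls (SD, n = 3 each). Ltbp1 had 0.54 with the bin medians taken out. Itgb8, the other epithelial activating integrin subunit, had 1 count in ETV4 KO and 11 in controls and was not tested.

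Among accessory receptors 5 of 7 tested rose and 2 fell, with a median log2 fold change of 0.56. Nrp1, a neuropilin that binds TGF-beta as well as VEGF and semaphorins, rose by 1.94 to 69.6 ± 3.44 CPM in ETV4 KO, against 18.1 ± 0.365 CPM in controls (SD, n = 3 each). Eng (endoglin), a relative of Tgfbr3, rose by 0.81, and the syndecan Sdc2 by 0.66 (0.27 with the bin medians taken out). Vasn (vasorin), a membrane protein that binds TGF-beta, fell by 0.90, and Tgfbr3l, a Tgfbr3-like gene, fell by 2.14 on 38 counts in ETV4 KO, against 159 in controls. The pseudoreceptor Bambi had 3 counts in ETV4 KO and 0 in controls and was not tested.

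In the activin and nodal branch, which shares Smad2 and Smad3 with TGF-beta, 4 of 8 tested genes rose and 4 fell (median log2 fold change 0.08). The activin antagonists Fst (follistatin) and Fstl3 rose by 3.01 and 0.59, Fst on 105 counts in ETV4 KO, against 12 in controls. The ligand genes Inhbb (-1.77, on 116 counts in ETV4 KO, against 374 in controls) and Gdf11 (-0.67) fell. Inhba, an activin ligand gene at a higher level than either, fell by 0.12. It had 122 ± 1.78 CPM in ETV4 KO, against 132 ± 2.97 CPM in controls (SD, n = 3 each). The type I receptor Acvr1b fell by 0.24, and the type II receptor Acvr2a rose by 0.29, a call lost with the bin medians taken out (0.14, edgeR adjusted p = 0.0690). Inha, Mstn, Gdf1 and Gdf3 had 0 counts in all 6 libraries.

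Of the other Smads, the BMP-activated Smad1 fell by 0.26 (-0.14 with the bin medians taken out) and Smad5 rose by 0.20 (0.07 and uncalled with the bin medians taken out, edgeR adjusted p = 0.141), and the inhibitory Smad6 rose by 0.40. Smad9, also BMP-activated, had 0.53 (SE 0.28, edgeR adjusted p = 0.0913) and was not called. It was called higher with the bin medians taken out (0.67, edgeR adjusted p = 0.0385) and without ETV4 KO replicate 3. Among the adaptors and nuclear cofactors 7 of 12 tested rose and 5 fell, with a median of 0.15. Dab2, an endocytic adaptor that can link the receptors to Smad2 and Smad3, rose by 3.32 to 78.9 ± 2.69 CPM in ETV4 KO, against 7.92 ± 0.494 CPM in controls (SD, n = 3 each). Tgfbrap1, a receptor-associated protein, rose by 0.41 and the coactivator Ep300 by 0.23. Runx2 and Runx1, transcription factors that bind Smads, were lower (-0.57 and -0.21), and the endosomal adaptor Hgs fell by 0.50. With the bin medians taken out Runx2 had -0.91 and Runx1 turned to 0.08 (edgeR adjusted p = 0.0507). No position was matched to Hgs by symbol, so it could not be set against a bin median.

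**Figure D5:**
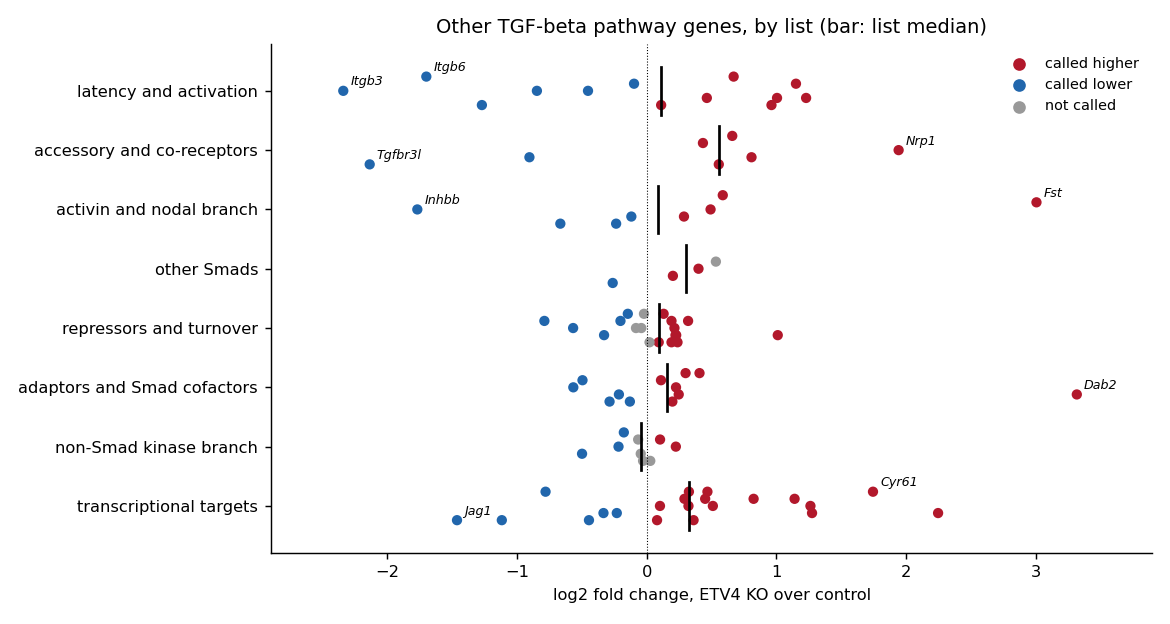
Log2 fold change, ETV4 KO over control, of the tested genes of 8 lists of other TGF-beta pathway genes; points are genes, coloured by call, black bars are list medians, and most genes beyond 1.4 either way are named. The accessory receptors and the transcriptional targets have the highest medians, 0.56 and 0.33, and every list holds genes on both sides of zero. The targets mix genes that TGF-beta induces with genes that it represses.

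Repressors and genes of protein turnover rose in 10 and fell in 5 of 19 (median log2 fold change 0.09). The split depended on the scaling, with 9 higher and 6 lower under upper-quartile factors, and 7 higher and 7 lower under library size alone. Pmepa1 and Skil, feedback inhibitors that TGF-beta induces as it does Smad7, were lower (-0.57 and -0.33), opposite to the rise of Smad7. With the bin medians taken out Smad7 had 0.05 and was not called, while Pmepa1 had -0.39 and kept its call. The deubiquitinase genes Usp9x and Usp4 rose by 1.01 and 0.24 and Usp11 fell by 0.79, and Ppm1a, a phosphatase of Smad2 and Smad3, rose by 0.32. Usp9x had 0.30, Ppm1a 0.20 and Skil -0.21 with the bin medians taken out. In the non-Smad kinase branch 2 of 9 rose and 3 fell (median -0.05): Shc1 (-0.22), Tab2 (-0.18) and Pard6a (-0.50) fell, and Traf6 and Xiap rose by 0.22 and 0.10. Xiap was called in 7 of 15 alternatives of scaling, filter, tool, threshold, block or samples, and with the bin medians taken out Shc1 (-0.00), Traf6 (0.08) and Xiap (0.03) were not called.

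Genes that TGF-beta is known to induce or repress rose in 15 and fell in 6 of 21 tested, with a median log2 fold change of 0.33. Many of them also answer to other signals, and the list does not separate these. Nor does it separate induced from repressed genes, so the split and the median give no direction for the pathway. Cyr61, a matricellular gene now called Ccn1, rose by 1.74 and Hmga2, an architectural chromatin factor, by 1.27. The Notch ligand Jag1 fell by 1.46, the growth factor Pdgfb fell by 0.78 and the tropomyosin Tpm1 fell by 0.45. Snai1, a regulator of the mesenchymal state, rose by 0.32 (SE 0.073, n = 3 per group, edgeR adjusted p = 0.00027), with every ETV4 KO library above every control. The groups did not overlap for 72.7% of all tested genes. Fn1 (fibronectin), of the same list, rose by 0.08 with overlapping groups (edgeR adjusted p = 0.0444). Among those not tested for low counts, the mesenchymal regulators Snai2 and Zeb1 had 1 and 2 counts over the 3 ETV4 KO libraries, against 0 and 11 over the controls, and Cdkn2b, a cell cycle inhibitor, had 0 in every library.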

How the data were processed

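The values are raw counts, deposited by the authors as a single table of gene symbols by 6 libraries, with no normalization; the unit was read from the values, which are whole numbers. Libraries were stranded poly(A) per the labels' protocols. STAR 2.7.9a, featureCounts, FastQC 0.11.9 and R 4.1.1 appear in the submitters' processing notes, beside the builds mm10 and hg38, without roles. No source used here gives the annotation, the strand setting or the treatment of reads with several matches. Antisense or overlapping genes share at most 297 exon bases with Tgfb2, Tgfb3 or Tgfbr3 and with none of the other 7. Of the overlapping genes only Gm29491, antisense to Tgfb2, was among the genes counted, with 1 count in total. How many reads of these 3 members come from the shared bases was not tested.

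Counts were tested with edgeR 4.0.16 in R 4.3.3 (filterByExpr with minimum count 10 and total 15, TMM, glmQLFit and glmQLFTest, group as the only term), with Benjamini-Hochberg adjustment over 12076 genes. The SE was derived from F and the log2 fold change. Ratios within a library used exact two-sided permutation tests. Lengths, positions and neighbours came from GENCODE M21 (GRCm38, equal to mm10), matched by symbol; 30416 of 31017 symbols had 1 position. Bin medians were computed over the other expressed genes of a 10 Mb bin, or of the chromosome where the bin held fewer than 10, and entered as an offset. Alternatives were RLE and upper-quartile factors, library size alone, other filters, DESeq2 1.42.0, limma-voom (limma 3.58.1), a replicate block, each sample left out, an adjusted p under 0.01 and glmTreat against 1.5-fold.

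The 10 genes and the lists were chosen with earlier results of these data known. Named from each list were up to 3 called genes per direction with the smallest adjusted p, and for the largest called rise and fall among the 10 genes the 3 nearest patterns with a mean count of at least 100. Of the genes so taken, 1 is not reported here. Itgav, Itgb8, Bambi, Inhba, Smad9, Snai1, Fn1, Snai2, Zeb1, Cdkn2b and the genes at 0 counts fall outside this rule and were chosen after their values were seen. Within a group, Pearson's r of log2 CPM was 0.995 to 0.996, and chi-square per degree of freedom of the counts was 2.12 to 5.12, so no library appeared to be a copy of another.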

Additional observations from a re-analysis of the deposited data

How the results depend on the processing

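Of the 10 genes, the 4 called higher and 3 called lower were the same 7 under each of 15 alternatives of scaling, filter, tool, block, threshold and samples; Tgfb1 was added with upper-quartile factors or library size alone, and Smad2 without control replicate 3. Against a fold change of 1.5 (glmTreat) 1684 genes passed in all, with 2 of the 10 genes higher and 0 lower, and 16 other pathway genes higher and 10 lower. The 2 were Tgfbr2 (adjusted p = 0.0213) and Tgfbr3 (0.0308), and Smad3 had an adjusted p of 0.118. With 10 Mb bin medians taken out, Smad2 reversed to -0.14 and Smad7 and Tgfbr1 lost their calls; the cause was not tested. With samples left out in turn Tgfbr2 ranged from 0.64 to 0.68, Smad3 from -0.65 to -0.62 and Tgfbr3 from 1.06 to 1.24. The same-numbered samples had correlations of their deviations from the group means of 0.202, 0.205 and -0.009 for replicates 1, 2 and 3. Those of replicates 1 and 2 were the highest of all pairs between the groups, of which the lowest was -0.271. Replicate 3 of ETV4 KO correlated best with control replicate 1. Whether same-numbered samples were handled together could not be told. With the replicate block 8882 genes were called in place of 8582, the counts for the 10 genes (4 higher, 3 lower) and for the other pathway genes (52 higher, 32 lower) were identical, and the mean differences of the Smad ratio (-0.71), the receptor ratio (0.91) and the Tgfb2 share (-0.06 percentage points) are the same with and without pairing by arithmetic. With the principal transcript length the share of Tgfb1 differed by 6.43 percentage points and that of Tgfb3 by -6.37, in place of 7.58 and -7.51. At this depth Tgfb2, with 15 to 31 counts per library, allows no firm statement.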
